A study of Rattus norvegicus with 30 samples.

Results

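The 56.4 to 57 Mb window of rat chromosome 1 (chr1:56400000-57000000, genome build rn5) was examined in whole-genome bisulfite sequencing of the medial prefrontal cortex of 30 male Fischer 344 rats. Every called cytosine of the window was a member, and the CpG, CHG and CHH contexts (H stands for any base but G) were kept apart. The aged rats, 17 to 22 months old, comprised 9 that were impaired (AI) and 11 that were unimpaired (AU) at shifting attention to a new rule, and the 10 young rats were 5 to 6 months old. None of the groups carried a transgene or a drug treatment in the labels. The calls came in separate sets, one of the AI and AU rats (AI-AU calls) and one of all aged and young rats (Aging-Young calls), so that the aged rats appear in both. Of 80903 CpGs in the AI-AU calls 946 lay in the window, and of 85484 in the Aging-Young calls 933 did. The window further held 7388 of 256337 CHG and 19223 of 687718 CHH cytosines in the AI-AU calls, and 7292 of 266960 CHG and 19103 of 707223 CHH cytosines in the Aging-Young calls.

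The window was chosen by the measured differences between AI and AU rats, so each AI against AU value below is a description, counts from a site-wise test included, and nothing is read from those counts. The window is called here by its position, since its working name as a locus of impairment rests on that choice. The young rats took no part in the choice, and aged against young comparisons were tested. Position is given on rn5, and no gene annotation of that build was used here, so whether a site lies in a gene, exon, intron or UTR is not stated.

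DNA methylation in mammals is placed mainly on the cytosine of CpG dinucleotides, and because CpG reads the same on both strands, the mark is copied to the new strand after replication by the maintenance methyltransferase DNMT1. Neurons also carry methylation outside CpG, laid down after birth by DNMT3A. Bisulfite turns unmethylated cytosine into uracil and spares methylated cytosine, and the methylation ratio is the share of reads at a site that still show a cytosine, from 0 (no read methylated) to 1 (every read methylated). Each ratio rested on at least 5 reads in that rat, and the depth above that minimum is unknown. A ratio from tissue averages over all its cells, so a change within cells and a change in the mix of cells cannot be told apart.

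Called sites filled the window unevenly. In the Aging-Young calls, CpGs fell into a left stretch of 177 CpGs (chr1:56400271-56480329), a middle stretch of 59 (chr1:56527551-56717010) and a right stretch of 697 (chr1:56842074-56976410), with a gap of 125064 bp without any CpG between the middle and right ones. With a break wherever neighbours were 1000 bp or more apart, the CpGs formed 51 clusters, the fullest of which held 199. Among bins of 600 kb, the window ranked 1 of 4325 by its number of CHG sites, 1 of 4339 for CHH and 5 of 4159 for CpGs, where the median bin held 26, 72 and 10 sites. The window was also covered in more rats, with a median of 23 of 30 rats holding a value at a CpG, against 16 at all other CpGs. At the lower edge, the last CpG below (chr1:56393424) had an AI minus AU difference of 0.0025 (6 AI and 8 AU rats). The first inside (chr1:56400271) had -0.19 (3 and 3 rats). The last inside (chr1:56976410) had 0.059 (3 and 3 rats). The next called CpG above (chr1:57183278), well beyond the window's end, had -0.056 (9 and 11 rats). With so few rats at the inner CpGs, no boundary is read from these values.

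CpG methylation of the window was intermediate in every group. The mean ratio over the window's CpGs was 0.659 in the Aging-Young calls, against 0.709 at all other CpGs, and 60.8% of its CpGs lay between 0.2 and 0.8 against 46.9% elsewhere. Only 7.61% of its CpGs were above 0.9, compared with 15.3% elsewhere. Within young rats the window was lower than the remaining CpGs by 0.043 ± 0.015 (SD, n = 10), in 10 of 10 rats. An exact two-sided sign-flip permutation test, chosen after the values were seen, gave p = 0.00195, the smallest that 1024 arrangements allow. With 10 of 10 rats already seen below, that p was fixed in advance, and nothing is read from it. Among 92 bins of 600 kb with at least 100 CpGs, the median bin mean was 0.685 and 39 bins were below the window. The left, middle and right stretches had site means of 0.652, 0.672 and 0.655 in young rats, 0.666, 0.674 and 0.659 in AI rats, and 0.666, 0.671 and 0.656 in AU rats.

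**Figure D1:**
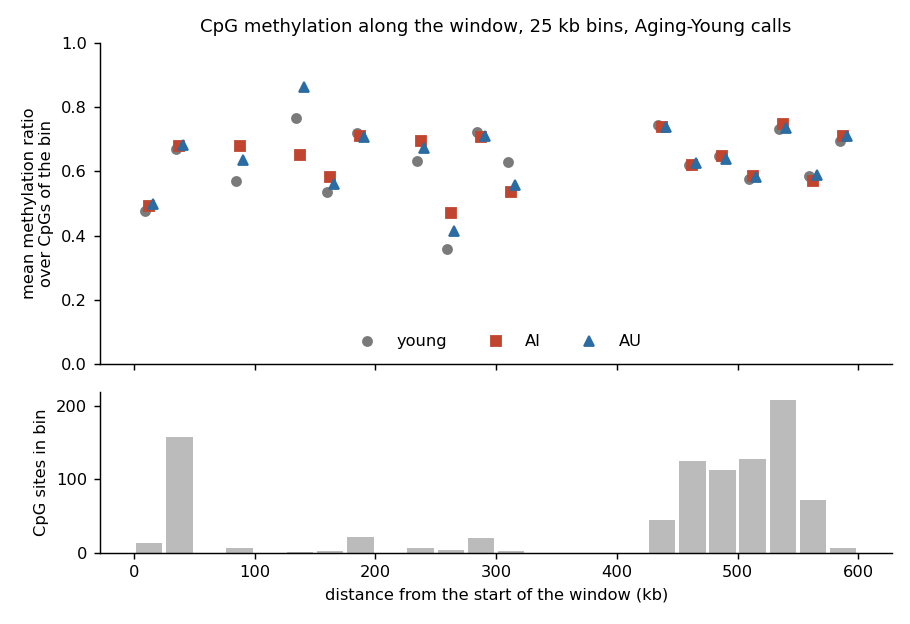
The upper panel plots the mean methylation ratio over the CpGs of each 25 kb bin in young (circles), AI (squares) and AU (triangles) rats against distance from the window's start in kb, and the lower panel plots the number of CpGs in the bin; the points are means over sites and have no error bar. The groups lie close together where a bin holds many CpGs, as in the bin of 208 CpGs with 0.732 in young, 0.746 in AI and 0.734 in AU rats, and apart in bins of few, as in the bin of 1 CpG with 0.765, 0.650 and 0.863.

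AI and AU rats hardly differed over the window as a whole. Averaged over the CpGs of each rat, AI rats were at a ratio of 0.662 ± 0.00614 (SD, n = 9) and AU rats at 0.659 ± 0.00659 (SD, n = 11). The AI values ran from 0.652 to 0.670 and the AU values from 0.648 to 0.668, so that the groups overlapped over nearly their whole range. Averaged over the 946 CpGs, AI minus AU was 0.0031, less than the SD of 0.0060 between aged rats of the level centred on each site's mean. Single CpGs differed by -0.32 to 0.36. A site-wise test on the ratios, with unequal variances allowed, put 48 of 946 CpGs past an unadjusted threshold of 0.05, which is 5.07% against the 4.1% of all CpGs. Of the 48, 25 were higher and 23 lower in AI, beside 1684 and 1630 over all CpGs. After Benjamini-Hochberg adjustment 0 were past 0.05, beside 7 of all 80901 tested CpGs.

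The 10 CpGs with the largest AI minus AU differences were covered in few rats, from 3 to 7 per group. The largest was chr1:56953330, where AI 1 and AI 3 were at 0.833 and AI 5 at 0.875, while AU 1 was at 0.833, AU 7 at 0.600, AU 4 at 0.286 and AU 3 at 0.222. AU 1 thus equalled AI rats, and the difference of 0.36 was carried by AU 3 and AU 4. At chr1:56920870, AI 2, AI 3, AI 4 and AI 5 had 0.571, 0.8, 0.857 and 0.833, and AU 3, AU 4, AU 6 and AU 7 had 0.667, 0.4, 0.333 and 0.286. The ranges overlapped through AI 2 and AU 3. At chr1:56626649, where AI was lower, AI 1, AI 2, AI 3 and AI 4 had 0.333, 0.571, 0.5 and 0.600 and AU 3, AU 4 and AU 5 had 0.818, 0.8 and 0.833. It was the 1 CpG of the 10 at which the ranges stood apart. At chr1:56429169, AI 1, AI 3 and AI 4 had 0.8, 0.333 and 0.4, and AU 1, AU 3, AU 4 and AU 5 had 1, 0.667, 0.833 and 0.833. AI 1 lay among the AU rats there.

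The other 6 of these CpGs were smaller in difference. The best covered was chr1:56907711, where AI ratios ran from 0 to 0.600 with a median of 0.143 over 7 rats and AU ratios from 0.231 to 0.714 with a median of 0.444 over 7 rats, a difference of -0.24. AI rats were lower at 7 and higher at 3 of the 10 CpGs. At 9 of the 10, every AI value came from rats of number series A, the lowest of the 3 runs of rat identification numbers (A, B and C), which may or may not mark a batch. Coverage also differed, with a value at 755 to 931 of the window's CpGs in AI rats of series A and at 455 to 638 in those of series B. Series A held 5 AI, 6 AU and 3 young rats, series B 4, 4 and 3, and series C 1 AU and 4 young rats; the part of the series in the result was not tested. When the same rats were looked up in the Aging-Young calls, 4 of the 10 CpGs were there with the same difference and 6 were not among those calls.

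Age left the CpG level of the window within the spread between rats. The mean CpG ratio of young rats was 0.660 ± 0.0162 (SD, n = 10) and that of aged rats 0.660 ± 0.00578 (SD, n = 20). Aged rats ran from 0.647 to 0.669 and young rats from 0.639 to 0.684, so that the aged values fell inside the young range. The young rats had fewer sites with a value, 287 to 902 with a median of 639.5 per rat, against 309 to 900 with a median of 769 in aged rats. After each site was centred on its mean over rats, aged minus young was 1.8e-05, a two-sided permutation test with 100000 resamples gave p = 0.996, and 11 of 20 aged rats were above the young mean.

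**Figure D2:**
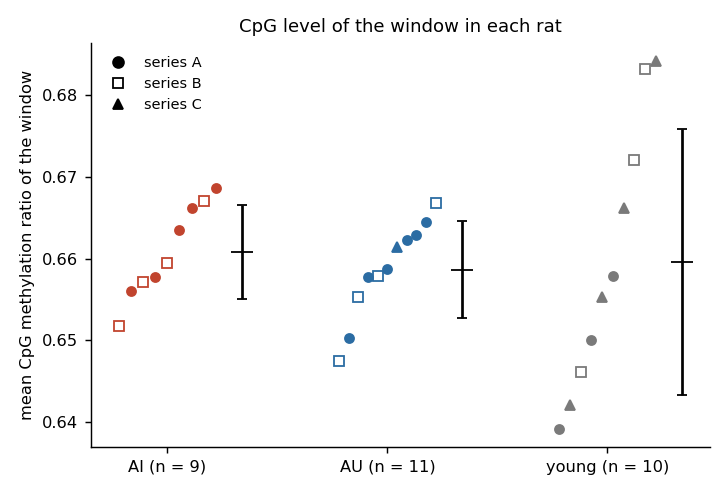
Each point is 1 rat's mean methylation ratio over the CpGs of the window in the Aging-Young calls, by group, with the number series as the symbol; bars show the group mean and SD, and the axis does not start at 0. The 10 young rats spread from 0.639 to 0.684, wider than the 9 AI rats (0.652 to 0.669) and the 11 AU rats (0.647 to 0.667).

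The age difference of the CpG level had opposite signs in number series A and B, though the series were not shown to differ. In series A, aged rats were higher by 0.0102 (11 aged and 3 young rats, exact permutation p = 0.0302, unadjusted), and in series B they were lower by 0.0085 (8 and 3 rats, exact permutation p = 0.194, unadjusted). The difference between these values was 0.019, with p = 0.110 when series labels were permuted within each age 20000 times. Series C held 1 aged rat and was not compared. Among aged rats, series A and B differed by 0.0034 (exact permutation p = 0.229, 11 and 8 rats). Over the 4 tests of levels in this family, the adjusted p-values were 0.996 for CpG, 0.223 for CHG, 0.110 for CHH and 0.305 for the number series. The CHG and CHH levels cover sites with a mean ratio above 0.1 in at least 1 group. Such a site can enter through the group where it is high, so nothing is read from the CHG and CHH p-values.

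Single CpGs of the window did not pass an adjusted threshold for age. By the site-wise test, 53 of 933 CpGs passed the unadjusted threshold of 0.05, or 5.68% against 6.13% of all CpGs, with 20 hypermethylated and 33 hypomethylated in aged rats. The hypermethylated share was 37.7%, close to the 39.3% over all CpGs that passed. That split varied with the fit. Limma on the ratios had 27 of 60 hypermethylated (6.43% of CpGs past the threshold, against 6.64% of all). With the number series as a covariate 32 of 61 were (6.54% past, against 6.50% of all), and on logit ratios 20 of 53 (5.68% past, against 6.63% of all). For these fits the hypermethylated share over all CpGs was not computed. None of the 933 passed after Benjamini-Hochberg adjustment over all CpGs, where 59 passed in all. The limma fits likewise placed 0 past the adjusted threshold. The differences ran from -0.28 to 0.33, and the median size among the 53 was 0.12. The share that passed was 5.88% in the right stretch (41 of 697 CpGs), 5.08% in the left (9 of 177) and 5.08% in the middle (3 of 59), near that of all CpGs in each.

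The CpG with the smallest p for age was chr1:56947099. In the Aging-Young calls young rats had a ratio of 0.696 ± 0.104 (SD, n = 8) and aged rats one of 0.904 ± 0.115 (SD, n = 18), a difference of 0.21 with a permutation p = 0.00026 and a p of 0.18 after adjustment of the site-wise test over all CpGs. Aged rats ran from 0.600 to 1 with a median of 0.932 and young rats from 0.545 to 0.833 with a median of 0.707, and 17 of 18 aged rats were above the young mean. The AI rats were not the same in both sets of calls at this site. In the AI-AU calls AI 1, AI 5, AI 6 and AI 7 had 0.600, 0.714, 0.667 and 0.667, and in the Aging-Young calls all of them had 1. AI 2 and AI 3 went from 0.778 and 0.667 to 0.833 and 0.850, while AI 4 dropped from 0.923 to 0.600. AI 9 had a value, 0.875, only in the AI-AU calls, and AI 8, at 0.8, only in the Aging-Young calls. The 10 AU rats had the same ratio in both.

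With the AI-AU calls' values for the aged rats, the same CpG gave an aged mean of 0.838 and an aged minus young difference of 0.14 (permutation p = 0.0160, unadjusted). With those values AI rats were at 0.736 ± 0.113 (SD, n = 8) and AU rats at 0.919 ± 0.0911 (SD, n = 10), a difference of -0.18, which was -0.033 in the Aging-Young calls. It was 1 of 2 CpGs in the window with other ratios in the other set. The second, chr1:56919582, changed in AI 1 (1 and 0.846) and AI 3 (0.857 and 1). Of 886 CpGs in both sets, 884 had the same ratios in every aged rat, within 0.0001.

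**Figure D3:**
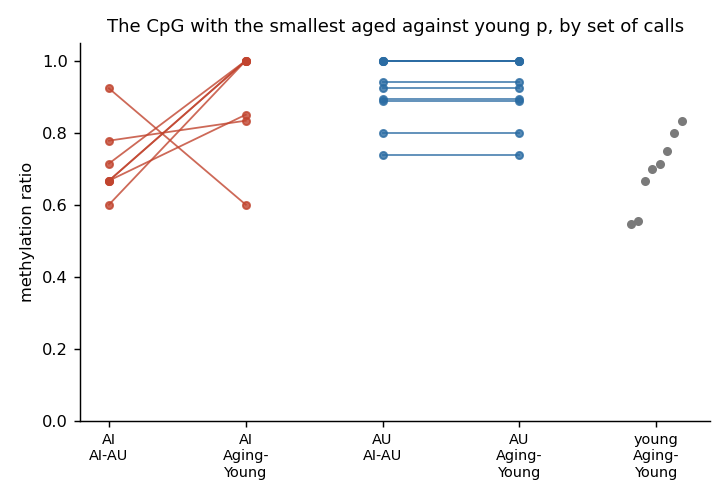
The methylation ratio of single rats at chr1:56947099 is plotted on the vertical axis, with lines joining the AI-AU and Aging-Young calls of the same rat (rats with a value in both) and the young rats at the right. All 7 AI rats change between the sets, the 10 AU rats do not, and the young rats sit between 0.545 and 0.833.

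The next CpGs by p were the same in both sets of calls. At chr1:56860186 the ratio was 0.505 ± 0.156 (SD, n = 12) in aged rats, from 0.273 to 0.833, and young 1, 2, 3, 5 and 7 had 0.273, 0.250, 0.278, 0.375 and 0.222. The young rats lay at the foot of the aged range, 0.23 lower on average (exact permutation p = 0.00727). At chr1:56940909 young rats were at 0.749 ± 0.0488 (SD, n = 7) and aged rats 0.15 higher at 0.898 ± 0.116 (SD, n = 12; exact permutation p = 0.00738). Young rats there ran from 0.7 to 0.8 and aged rats from 0.667 to 1. At chr1:56442747 aged rats were at 0.481 ± 0.136 (SD, n = 12) and young rats, from 0.143 to 0.4, at 0.257 ± 0.103 (SD, n = 6), 0.22 lower (exact permutation p = 0.00334). At chr1:56883645 the direction was the opposite, with young rats at 0.711 ± 0.105 (SD, n = 7) and aged rats at 0.527 ± 0.13 (SD, n = 15), which is -0.18 as aged minus young (exact permutation p = 0.00426). Their p-values from the site-wise test, adjusted over all CpGs, were 0.22, 0.305, 0.354 and 0.440, and 11 of 12, 11 of 12, 11 of 12 and 14 of 15 aged rats lay on the same side of the young mean.

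The strands of one CpG were set side by side as a description, since a CpG can be methylated on both. The Aging-Young calls held 313 pairs of CpG cytosines 1 base apart, the site means of which differed by a median of 0.043. Their Pearson correlation across pairs was 0.927, given as a description, since the cytosines of a pair are neighbours and come from the same libraries. In 40 pairs a cytosine passed the unadjusted threshold for age, both cytosines passed in 1, and the cytosines differed in the same direction in 22 and in opposite directions in 18. In the 39 pairs with 1 passing cytosine, the median size of its difference was 0.132, and the partner's difference in that direction had a median of 0.0042. The passing cytosine was picked by its own p, which favours a larger difference there than at its partner. Nothing is therefore read from that contrast, here or in the AI-AU calls, and no share over pairs of the whole series is given. In the AI-AU calls, given as a description, the 35 such pairs of 314 ran in the same direction in 25, and the medians over the 32 pairs with 1 passing cytosine were 0.115 and 0.020.

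Methylation outside CpG was low in the window. The mean ratio over sites was 0.0205 at CHG and 0.0119 at CHH cytosines in the Aging-Young calls, compared with 0.0228 and 0.0172 at all other sites. Of its CHG cytosines 96.9% were below 0.1, and of its CHH cytosines 98.7% were. In young rats the window was below the remaining sites by 0.0029 ± 0.00090 (SD, n = 10) at CHG and 0.0056 ± 0.00082 (SD, n = 10) at CHH, in 10 of 10 rats for each. The exact sign-flip permutation test, chosen after these values were seen, gave the smallest p that it allows, 0.00195, for each. That p was likewise fixed in advance, and nothing is read from it. Among bins of 600 kb, 204 of 482 bins with at least 100 CHG sites and 328 of 1726 with at least 100 CHH sites were lower. Averaged by rat, the CHG ratio was 0.0199 ± 0.00117 (SD, n = 10) in the young and 0.0196 ± 0.00111 (SD, n = 20) in the aged, and the CHH ratio was 0.0115 ± 0.00064 (SD, n = 10) and 0.0114 ± 0.00070 (SD, n = 20).

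A few non-CG cytosines were highly methylated in all groups. In the Aging-Young calls 14 CHG and 19 CHH cytosines had a mean above 0.5 in aged and in young rats alike. At the CHG cytosine chr1:56940755, covered in all 30 rats, the ratio was 0.763 ± 0.0739 (SD, n = 9) in AI, 0.748 ± 0.103 (SD, n = 11) in AU and 0.759 ± 0.113 (SD, n = 10) in young rats. The groups overlapped throughout, with 0.538 as the lowest value and 1 as the highest. At the CHG cytosine chr1:56861622, aged rats were at 0.813 ± 0.128 (SD, n = 16) and young rats at 0.816 ± 0.142 (SD, n = 7). At the CHG cytosine chr1:56940169, aged rats were at 0.744 ± 0.121 (SD, n = 18) and young rats at 0.730 ± 0.0765 (SD, n = 8). At the CHH cytosine chr1:56958573 young rats stood at 0.803 ± 0.111 (SD, n = 7) and aged rats at 0.831 ± 0.0843 (SD, n = 18). At chr1:56956943, also CHH, aged rats were at 0.846 ± 0.0804 (SD, n = 9), and young 1, 2 and 7 had 0.778, 0.778 and 1. The last of the 3 CHH cytosines with the highest aged means in the AI-AU calls, chr1:56972549, was not among the Aging-Young calls, with 0.755 ± 0.0431 (SD, n = 3) in AI and 0.776 ± 0.181 (SD, n = 7) in AU rats.

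The largest AI against AU differences in the window were all outside CpG. No CpG differed by more than 0.5 (0.0198% of all CpGs did), whereas 8 CHG cytosines (0.108%, against 0.0655% of all CHG sites) and 12 CHH cytosines (0.0624%, against 0.0525% of all CHH sites) did. Of these 20, 14 were higher in AU and 6 in AI rats, beside 341 and 188 of all 529 such sites of the series. The groups did not overlap at any of the 20, as at 99.8% of the 529. Values were few, with a median of 4.5 rats in the higher and 7.5 in the lower group. By the site-wise test on sites with a mean ratio above 0.1 in at least 1 group, 20 of 297 CHG sites (6.73%, against 6.23% of all) and 18 of 282 CHH sites (6.38%, against 6.1% of all) passed the unadjusted threshold. The adjusted threshold was passed by 3 and 8, beside 87 of 14565 CHG and 186 of 28134 CHH tested sites of the series. Each of the 3 and 8 was a site with a difference above 0.5. These counts come from the contrast that chose the window, and from sites that could pass the filter through the group where they are high, so nothing is read from them. A further 4 CHG and 4 CHH sites had no spread in either group and could not be tested.

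These differences were not present when the same rats were read from the other set of calls. At the CHG cytosine chr1:56444919, AI 1, 2, 3, 4, 5, 7, 8 and 9 were at 0 and AU 1, 2, 3, 4 and 5 at 1 in the AI-AU calls. In the Aging-Young calls AI 1, 2, 3, 5 and 6 were at 1, as were AU 1, 2, 3, 4 and 5, and the 8 young rats ran from 0 to 0.111. AI 1, 2, 3 and 5 thus had 0 in one set and 1 in the other. At the CHH cytosine chr1:56868156, the 8 AI rats with a value were at 0 and the 7 AU rats at 1 in the AI-AU calls. In the Aging-Young calls 5 AI and 7 AU rats were at 1 and the 5 young rats at 0. Sites that were higher in AI behaved alike. At the CHH cytosine chr1:56440299, 8 AI rats were at 1 and 11 AU rats at a mean of 0.0084 in the AI-AU calls, whereas 8 AI and 8 AU rats were at means of 1 and 0.975 in the Aging-Young calls, above 8 young rats at 0.0089. At the CHH cytosine chr1:56585186, AI 2, 3 and 5 were at 1 in both sets, and AU 2, 3 and 7 went from 0 to 1, 1 and 0.875.

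The same held at nearly every such site. Of the 20 sites 19 were among the Aging-Young calls, and there AI minus AU ran from -0.24 to 0.048, with a median size of 0.015 and 17 of 19 within 0.1. At 18 of the 19 the higher aged group kept its ratio, the lower one moved up to it, and the aged rats as a whole then stood more than 0.5 above the young. The exception was the CHH cytosine chr1:56974570, where AU rats went from a mean of 1 (3 rats) to 0.024 (8 rats) beside AI rats at 0 in both sets and young rats at 0. Over the 19 sites, 162 values of aged rats were in both sets, of which 64 differed by more than 0.5. The CHH cytosine chr1:56951257 was the 1 site that could not be looked up. Another 61 values were in the AI-AU calls alone, all of them below 0.2, and 17 in the Aging-Young calls alone. What moved the ratios between the sets was not tested.

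**Figure D4:**
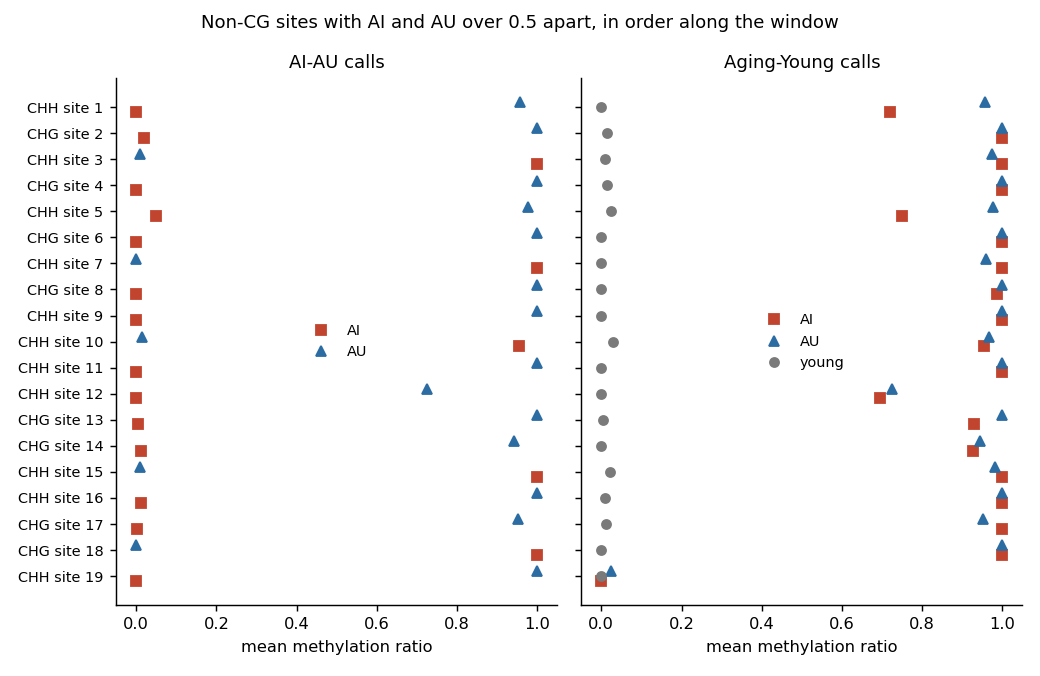
Mean methylation ratios of AI (squares), AU (triangles) and young (circles) rats at the 19 non-CG cytosines with AI and AU more than 0.5 apart that are in both sets of calls, in order along the window, with the AI-AU calls at the left and the Aging-Young calls at the right. AI and AU stand at opposite ends at the left and together at the right, at 18 of 19 sites on the high side with the young rats low.

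**Figure D5:**
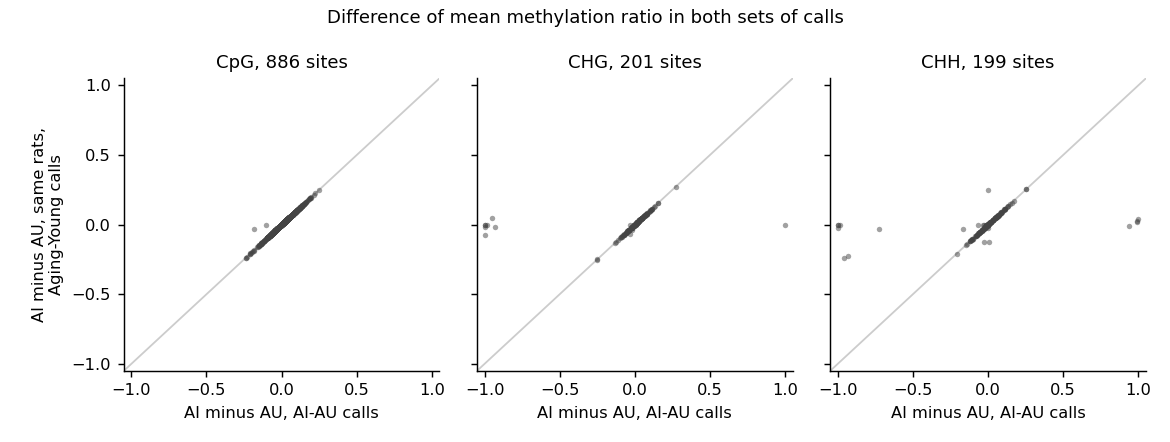
Each point is a cytosine in both sets of calls, with AI minus AU in the AI-AU calls on the horizontal axis and in the Aging-Young calls on the vertical axis, for 886 CpGs and for the 201 CHG and 199 CHH cytosines with a mean ratio above 0.1 in aged rats in either set. Each difference is over the rats with a value in that set, which are not always the same rats, and the line marks equal values. Nearly all points lie on the line, and the cytosines more than 0.5 apart in the AI-AU calls lie between -0.24 and 0.048 on the vertical axis.

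Large aged against young differences were found at 57 non-CG cytosines, 20 CHG (0.274%, against 0.156% of all) and 37 CHH (0.194%, against 0.129% of all), and at no CpG (0.0398% of all CpGs). Aged rats were higher at 36 and young rats at 21, beside 870 and 459 of all 1329 such sites of the series. The groups did not overlap at any of the 57, as at 99.8% of the 1329, and a median of 5 rats in the higher and 7 in the lower group had a value. Of the 36 with aged rats higher, 35 were among the AI-AU calls, and the aged ratios had moved at all 35, from a median of 0.990 over sites in the Aging-Young calls to 0.262 in the AI-AU calls. AI and AU were more than 0.5 apart at 18 of the 35, and at 17 the aged mean was below 0.2. An example of the latter was the CHH cytosine chr1:56862776, where the Aging-Young calls put 15 aged rats at a mean of 0.990 and 10 young rats at 0.018, and the AI-AU calls put all 20 aged rats at 0. Of the 21 with young rats higher, 15 were among the AI-AU calls and the aged rats kept their ratios at all 15, with no site mean above 0.043 and single rats at up to 0.2. The CHG cytosine chr1:56435783 was at 0 in 17 aged rats in both sets and at 1 in 6 young rats, whose ratios are in the Aging-Young calls alone and could not be looked up elsewhere.

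The site-wise test for age outside CpG is given as a description. A site was tested where its mean ratio was above 0.1 in at least 1 group, so that a site at 0 in one group entered only through the group where it is high, and 18 of the 57 sites are also among those far apart between AI and AU rats. Nothing is therefore read from these counts. Of 299 tested CHG sites 31 were past the unadjusted threshold (10.4%, against 8.98% of all), 16 higher and 15 lower in aged rats, a share of 51.6% higher against 53.1% over all sites past it. Of 322 CHH sites 43 were past it (13.4%, against 8.81% of all), 29 higher and 14 lower, a share of 67.4% higher against 58.7%. After adjustment 13 CHG and 25 CHH sites were past the threshold, beside 308 of 14554 CHG and 627 of 28017 CHH tested sites of the series. Of the 13 and 25 sites, 12 and 24 had a difference above 0.5. The others were the CHG cytosine chr1:56973888, at 0.0486 in 5 aged and 0.317 in 3 young rats, and the CHH cytosine chr1:56444460, at 0.0216 in 10 aged and 0.151 in 6 young rats. A further 5 CHG and 9 CHH sites had no spread in either group and could not be tested.

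Averaged per rat over all non-CG sites of the window, aged minus young was -0.00023 at CHG (permutation p = 0.513) and -2.3e-05 at CHH (permutation p = 0.928). Over the 304 CHG and 331 CHH sites with a mean ratio above 0.1 in at least 1 group, the values depended on which sites were kept. A site could pass that filter through the group where it is high, so the p-values over these sites are given as a description and nothing is read from them. At CHG the difference was -0.0090 (permutation p = 0.112), and it was -0.023 (permutation p = 0.00101) without the sites that differed by more than 0.5, 0.0090 within series A and -0.016 within series B (exact permutation p = 0.115 and 0.152). At CHH the difference was 0.014 (permutation p = 0.0276, adjusted p = 0.110), and it was -0.010 (permutation p = 0.171) without the sites that differed by more than 0.5, 0.016 within series A and 0.028 within series B (exact permutation p = 0.00275 and 0.0242).

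The sets of calls rarely differed, and where they did it was mostly at the sites described above. Of 6865 CHG cytosines in both sets, 13 had other ratios in 40 of 104277 rat values, and all 13 were sites with a group difference above 0.5. Of 17795 CHH cytosines 24 had other ratios in 112 of 265462 rat values, and 22 of the 24 were such sites. The aged rats' values were the same in both sets at 99.8% of shared CpGs, 99.8% of CHG and 99.9% of CHH cytosines.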

How the data were processed

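Genomic DNA of the prelimbic and infralimbic cortex was bisulfite converted and sequenced, 1 library per rat. The authors trimmed and checked the reads (Trimmomatic, FastQC), aligned them to rn5 with BSMAP, filtered for conversion and called a methylation ratio, deposited as a fraction from 0 to 1 per rat and cytosine, for sites with at least 5 reads in at least 3 rats per group. Read counts per site were not used here, so the depth behind a ratio is unknown above 5 reads and no interval is given.

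Every column of ratios was matched to a rat by its label, and 0 were left over. Deposited means and SDs were not used. The window and the lists of sites were chosen with earlier results of these data known. Sites were compared by Welch's test on the ratios (the site-wise test) over the whole table (numpy 2.4.6, scipy 1.17.1), with Benjamini-Hochberg adjustment, at least 3 rats per group and, outside CpG, a mean above 0.1 in at least 1 group. The study's methods use that test for age; for impairment they correlate ratios with task scores, which were not used here. Levels per rat were compared by permutation tests, and limma 3.58.1 gave alternatives. Named sites were the 10 CpGs with the largest AI minus AU difference, the 5 with the smallest p for age, and 3 CHG and 3 CHH sites each by level and by difference; chr1:56973888, chr1:56444460, chr1:56862776, chr1:56435783, chr1:56440299, chr1:56974570, chr1:56951257 and chr1:56919582 were named after their values were seen. The scripts were tested on simulated data. The rats are separate animals; number series A, B and C are runs of identification numbers and are not stated to be batches.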

Additional observations from a re-analysis of the deposited data

Results flagged for a closer look

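In 59 groups of 4 to 10 values examined, 2 values were set apart by the ratio of their gap to the range of the group, which chance does in about 1 group in 20. Both are the same measurement, a gap of 1 rat below others tied at the highest possible ratio. At the CpG chr1:56581355 AU 7 had a ratio of 0.909 in the AI-AU calls and 0.909 in the Aging-Young calls, where the other AU rats with a value (AU 3, AU 5 and AU 6) were at 1. AI rats ran from 0.667 to 0.909 at that site and young rats from 0.692 to 0.875.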

How the results depend on the processing

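The count of CpGs past the unadjusted threshold for age, 53, lay between 43 and 61 under limma on ratios or logit ratios, with the number series as a covariate, with at least 5 rats per group, with only sites of equal ratios in both sets and without series B or C. In these settings the share past it was 5.68% to 6.54%, against 6.39% to 6.73% of all CpGs. The count was 22 of 598 (3.68%, against 4.58% of all) without the rats of series A. It was 2 of 51 (3.92%, against 5.11% of all) with only the first site of each cluster. Both of these settings test fewer sites. No setting gave a CpG of the window past the adjusted threshold. Without a filter on the ratio 253 of 7287 CHG sites (3.47%, against 2.12% of all) and 360 of 19094 CHH sites (1.89%, against 1.43% of all) passed, of which 231 and 336 were higher in aged rats (91.3% and 93.3%, against 84.8% and 86.2% of all sites that passed). Without sites of a difference above 0.5 (added after the data were seen) 16 CHG sites (5.63%, against 6.86% of all) and 15 CHH sites (5.10%, against 6.54% of all) passed. That fall was fixed in advance, since the sites are left out by the difference that is tested. The age difference of the CpG level, 1.8e-05, changed sign to -0.0085 within series B, -0.0011 with 1 value per cluster and -0.00050 over sites with equal ratios in both sets, was 0.0102 and past an unadjusted 0.05 within series A, and ran from -0.0022 to 0.0026 when single rats were left out. The CHG level difference, -0.0090, became 0.0090 within series A and -0.023 without sites of a difference above 0.5, and the CHH one, 0.014, became -2.3e-05 without a filter and -0.010 without sites of a difference above 0.5. The filtered CHG and CHH values are a description, since a site can enter through the group where it is high. Leaving out sites of a difference above 0.5 also selects them by the difference that is tested. The cause of these changes was not tested. AI minus AU over the window's CpGs stayed between 0.0019 and 0.0043 when single rats were left out. Few rats per site (3 to 7 at the named AI against AU CpGs) limit what single sites can show. No paired analysis was possible because the labels give no replicate number shared between groups.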
